A study of Mus musculus with 45 samples.

Results

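The data described here are the 15 libraries of the E11.5 chase, of 45 SLAM-seq libraries in the series, read as a time course of gene expression rather than of RNA decay. They were chosen by stage, and the comparison made was the level of each gene 12 h after the start of a uridine chase against its level at 0 h, paired within each of 3 replicates, with 2, 4 and 8 h as the course between them. A gene was tested when reads covered over 500 T positions in all 6 end libraries (0 h and 12 h, replicates A to C), which held for 13018 of the 53491 genes listed. Of these, 13004 are treated as polyadenylated, among them 11291 protein-coding genes and 1243 processed pseudogenes. The remaining 14, RNAs whose mature form has no poly(A) tail (4 replication-dependent histone genes, 3 genes lying in rRNA sequence and 7 small RNAs), are described apart, because the library kit selects poly(A) RNA. At 0 h, 167 genes passed the limit in all 3 libraries but not at 12 h, and 489 passed only at 12 h.

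SLAM-seq labels new RNA with 4-thiouridine (4sU), whose alkylation makes reverse transcription misread it as a T-to-C conversion, and the study used the loss of converted Ts after a chase to compare RNA stability across cortical development. All cells were WT primary mouse cortical cells, and each E11.5 replicate was cortical tissue pooled from 7 embryos (2 at E14.5 and E16.5). The cells were dissociated, divided over 5 wells and kept in DMEM with N-acetyl-L-cysteine, N2, B27 without vitamin A and bFGF. Every well received 100 uM 4sU for 20 h, with the labelling medium renewed 4 times before the chase. At 0 h, 5 mM uridine was added, and 1 well per replicate was lysed after 0, 2, 4, 8 or 12 h. No well without 4sU, without uridine or with a medium change at 0 h alone is in this comparison, so chase time, time in culture, time since the last medium change and the loss of label cannot be told apart. Each replicate is a separate pool but each time point is 1 well. The tests hold the replicate as a block, which takes out constant differences between pools. Their p-values therefore measure how the changes over time vary between replicates, where pool and well cannot be told apart.

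At this stage the cortical wall is mostly made of radial glia, the dividing stem cells of the cortex, which use Notch signalling to hold back differentiation, produce intermediate progenitors and the first neurons, and only much later turn to making glia. FGF in the medium drives their division and induces transcription factors of the EGR family together with feedback inhibitors of the pathway. Cells make cholesterol through enzymes controlled as 1 group by the transcription factor SREBP2, which is active when sterol in the endoplasmic reticulum is low.

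The E11.5 libraries held 16495477 to 37753820 reads, which covered 232474698 to 536868509 T positions in all. Progenitor and neuron markers were present at 0 h: Pax6 was at 102, 85.4 and 91.8 and Tubb3 at 951, 1122 and 1191 in replicates A, B and C. These values, and all levels below unless stated, are normalised cpm (reads relative to library size after TMM scaling, which sets libraries on a common scale by assuming that most genes do not change). In a principal component analysis the first component, with 35.3% of the variance, followed time in replicates A and B, and in replicate C from 2 h on, where 0 and 2 h were in reverse order. On the second, with 20.7%, replicate C was the lowest of the 3 at every time. The share of T positions converted, over all genes, fell from 1.09, 1.01 and 1.44% at 0 h to 0.262, 0.263 and 0.288% at 12 h.

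Expression drifted in small steps over a large number of genes. Between 0 and 12 h, 2599 of the 13004 polyadenylated genes rose (20%) and 2481 fell (19.1%) at an adjusted p under 0.05 (edgeR quasi-likelihood test on covered-T counts with the replicate as a block, Benjamini-Hochberg adjustment over all genes tested, used for every adjusted p below). Of these 5080 genes (39.1%), 5029 moved in the same direction in all 3 pairs and 4200 changed by less than 1.5-fold. Over 2-fold, 83 genes rose (0.638%) and 92 fell (0.707%). The 0 h and 12 h libraries did not overlap for 5399 genes (41.5%). Across all polyadenylated genes the median log2 change was -0.006, with the 5th and 95th percentiles at -0.49 and 0.50 and a median SE of 0.079. The balance of rises and falls rests on the scaling: rises made up 51.2% of calls here, 32.6% without a scaling factor (1757 against 3639) and 16.1% with limma on unscaled log2(cpm + 1) values (1050 against 5455), where the median of all genes moved to -0.16. Changes are therefore relative to the typical gene. With 1 replicate left out, fewer genes passed: 1479 rose and 1178 fell without A, 1783 and 1587 without B, and 2523 and 2324 without C. The list counts given below without a replicate are read against these.

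**Figure D1:**
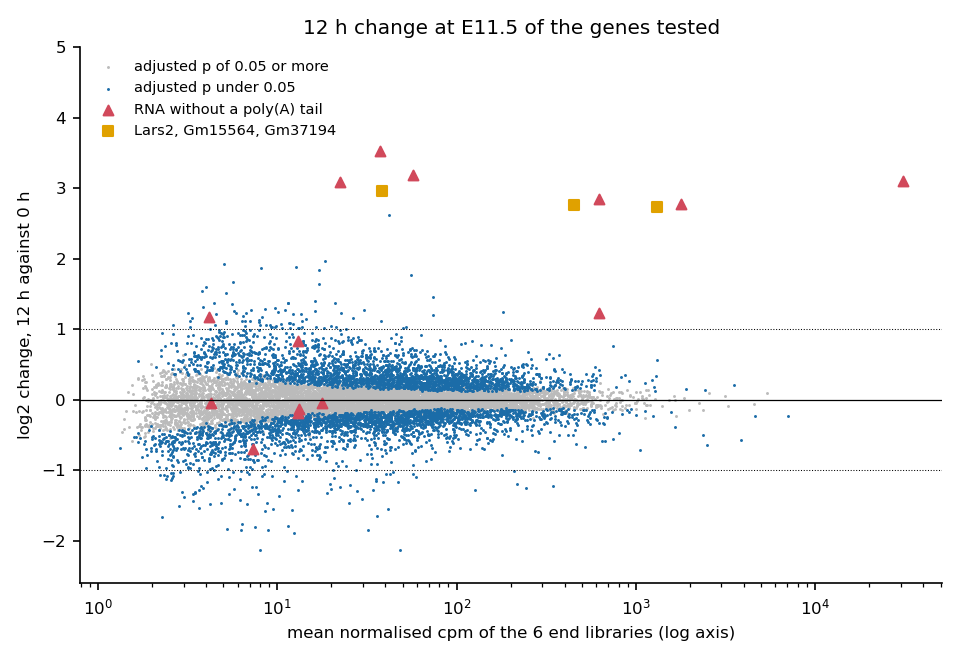
The log2 change from 0 h to 12 h (vertical axis) against the mean normalised cpm of the 6 end libraries (horizontal log axis), 1 point per gene tested. Blue points passed an adjusted p of 0.05, dotted lines mark a 2-fold change, triangles are the 14 RNAs without a poly(A) tail and squares are Lars2, Gm15564 and Gm37194. The 3 squares and 7 of the triangles lie between 1.24 and 3.53, and most other points lie between the dotted lines.

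The changes built up over the chase. At 2 h, 426 genes differed upward (3.28%) and 471 downward from 0 h (897 genes, 6.9%), at 4 h 1609 and 1418 (3027, 23.3%) and at 8 h 2030 and 1868 (3898, 30%). All 4 comparisons use the same 0 h libraries. The median size of a log2 change was 0.088, 0.14, 0.14 and 0.16 at 2, 4, 8 and 12 h. Among the 83 genes over 2-fold higher at 12 h, the median log2 change was 0.20 at 2 h, 0.44 at 4 h, 0.80 at 8 h and 1.17 at 12 h, and 75 were past the midpoint of their change by 8 h. The 92 genes over 2-fold lower had medians of -0.26, -0.56, -0.91 and -1.23, and 82 were past the midpoint by 8 h. Since the 12 h values at E11.5 chose these genes, their 12 h medians are a description. That choice alone makes smaller medians likely at other stages, so the values that follow do not measure a stage difference. In cells of the later stages the same 83 genes had a median 12 h change of 0.40 (E14.5) and 0.23 (E16.5), with 12 and 3 of them over 2-fold higher. The 92 falling genes had medians of -0.66 and -0.37, with 17 and 11 over 2-fold lower.

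Egr1 and Cdkn2b had the largest falls among protein-coding genes. Egr1, a transcription factor induced within minutes of growth factor signalling, was at 79.9, 84.9 and 68.8 normalised cpm at 0 h in replicates A, B and C and at 16.6, 23.2 and 15.1 at 12 h, so that it was 4.35-fold lower at 12 h (log2 -2.12 ± 0.074 SE, adjusted p = 3.95e-12). Its libraries did not overlap, and the change came late, with log2 values of -0.20, -0.21 and -1.45 at 2, 4 and 8 h. Cdkn2b, an inhibitor of the G1 kinases CDK4 and CDK6 (chr4:89306299-89311039 in GRCm38, as are all positions below), went from 11.7, 17 and 10.3 to 3.1, 3.55 and 2.28 and was 4.36-fold lower at 12 h (log2 -2.12 ± 0.16 SE, adjusted p = 2.68e-08). It had fallen by 2 h (log2 -0.86, adjusted p = 0.00252), where Egr1 did not pass the test (adjusted p = 0.0972). Hbegf, a ligand of the EGF receptor, was at 11.6, 12.7 and 10.6 at 0 h and 3.51, 3.63 and 2.94 at 12 h, 3.48-fold lower at 12 h (log2 -1.80 ± 0.12 SE, adjusted p = 8.7e-09). For both genes each 12 h library was below every 0 h library.

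The other 7 of the 10 largest falls among protein-coding genes had log2 changes from -1.88 to -1.55. Shisa3 (chr5:67607882-67623552), which encodes an antagonist of WNT and FGF receptor maturation, had levels of 43.7, 47.8 and 58.5 at 0 h and 12.9, 13.6 and 15.5 at 12 h, and was 3.6-fold lower at 12 h (log2 -1.85 ± 0.060 SE, adjusted p = 2.85e-12). Acta2, smooth muscle actin, changed by -1.88, Thbs2, the matrix glycoprotein thrombospondin 2, by -1.84, Bace2, an aspartyl protease, by -1.83, Pcsk5, a proprotein convertase, by -1.64 and Anxa3, an annexin, by -1.55. mt-Co2, a cytochrome oxidase subunit of the mitochondrial genome, changed by -1.79, but near-identical nuclear copies make its reads uncertain. In these 7 genes, too, the groups were separate. At E14.5 and E16.5 the 12 h change was -1.75 and -0.56 for Shisa3, -1.84 and -0.056 for Acta2, 0.24 and -0.14 for Thbs2, and -0.12 and 0.18 for Anxa3.

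Cspg4, the NG2 proteoglycan of oligodendrocyte precursors and pericytes and 1 of the 10 genes with the largest rises, went from 7.42, 5.31 and 10.4 to 31.8, 34.6 and 20.9, 3.93-fold higher at 12 h (log2 1.97 ± 0.22 SE, adjusted p = 2.76e-06). Dlx5 (chr6:6877805-6882085), a homeobox factor of ventral forebrain interneuron precursors, was at 4.7, 5.15 and 6.46 at 0 h and 18.8, 18.3 and 23.2 at 12 h, 3.69-fold higher at 12 h (log2 1.88 ± 0.095 SE, adjusted p = 4.07e-10). Nrxn3, a presynaptic adhesion receptor, was at 3.31, 2.76 and 4.07 and then 12.1, 13.2 and 13.1, 3.64-fold higher at 12 h (log2 1.86 ± 0.12 SE, adjusted p = 8.7e-09). None of these 3 genes had overlapping groups, and all rose step by step: Dlx5 by 0.22, 0.85 and 1.41, Nrxn3 by 0.25, 0.57 and 1.08 and Cspg4 by 0.20, 0.62 and 1.28 on the log2 scale at 2, 4 and 8 h. Gsn (chr2:35256380-35307892), the actin-severing protein gelsolin, reached 92.3, 91.1 and 74.3 from 22.5, 26.4 and 28, 3.39-fold higher at 12 h (log2 1.76 ± 0.11 SE, adjusted p = 6.79e-09). Cybrd1, a ferric reductase, changed by 1.93, Rftn2, a lipid raft protein, by 1.85, 2810459M11Rik by 1.67, the kinase Stk32a by 1.65 and Cacna1e, a voltage-gated calcium channel subunit, by 1.54, also without overlap. The 10th of these rises, Lars2, is taken up with the rRNA sequence below.

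**Figure D2:**
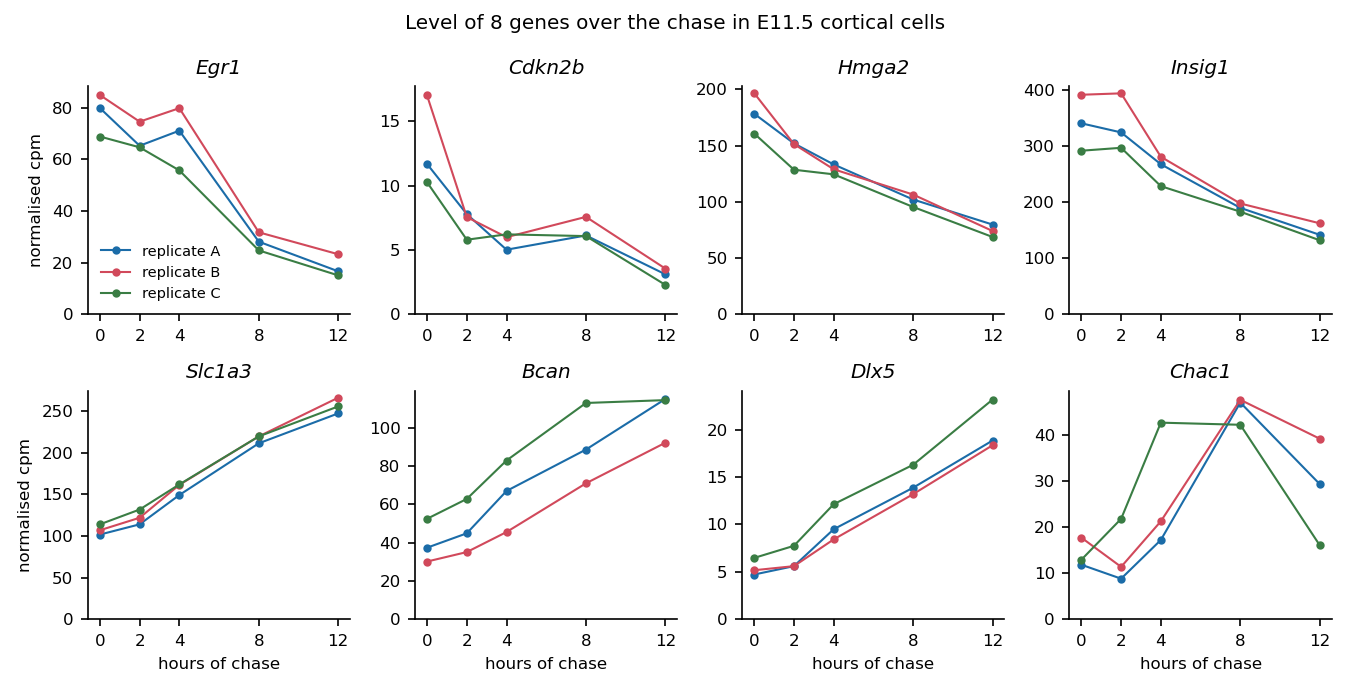
Normalised cpm (vertical axes, from 0) of 8 genes at 0, 2, 4, 8 and 12 h of the chase, 1 line per replicate (A, B, C). Egr1 drops between 4 and 8 h, Hmga2 and Insig1 decline over the course, Slc1a3, Bcan and Dlx5 rise over it, and Chac1 peaks at 4 or 8 h.

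The genes of cholesterol synthesis and uptake fell as a group. Of 24 tested, 23 fell and none rose (19.1% and 20% of all polyadenylated genes did), and the median log2 change of the list was -0.51 against -0.006 for all genes. Insig1 (chr5:28071363-28078662) encodes an anchor that keeps the SREBP proteins in the endoplasmic reticulum. It was at 340.1, 391 and 291 at 0 h and 142, 162 and 132 at 12 h, and was 2.37-fold lower at 12 h (log2 -1.25 ± 0.059 SE, adjusted p = 2.16e-10). Lss (chr10:76531588-76557138), the cyclase that makes lanosterol, had levels of 513, 515 and 428 and then 199.8, 226 and 197, 2.33-fold lower at 12 h (log2 -1.22 ± 0.061 SE, adjusted p = 4.01e-10). Idi1, isopentenyl diphosphate isomerase, was 2.16-fold lower at 12 h (log2 -1.11 ± 0.080 SE, adjusted p = 2.12e-08). In each of the 3, all 12 h libraries lay below all 0 h libraries.

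The same direction held along the pathway. Hmgcs1, the HMG-CoA synthase near the start of the pathway, went from 3376, 2899 and 2863 to 1981, 1978 and 1901 and changed by -0.64 (adjusted p = 6.11e-07) on the log2 scale, with no overlap. Among the later enzymes, Msmo1 changed by -0.67, Cyp51 by -0.55, Sqle by -0.50 and Dhcr7 by -0.36. Srebf2, which encodes SREBP2 itself, changed by -0.17 (adjusted p = 0.0057), the smallest fall of the 23. The exception was the sterol reductase Tm7sf2, at 50, 57.6 and 47.6 and 55.1, 58.7 and 48.4 with a log2 change of 0.072 (adjusted p = 0.491). The fall came late, since the list's median log2 change was 0.077 at 2 h, -0.095 at 4 h and -0.33 at 8 h. Between 20 and 23 members fell and none rose under every alternative setting.

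Cholesterol genes also fell in E14.5 cells, and few did in E16.5 cells. At E14.5, 22 of the 24 genes fell over 12 h, where 39.2% of all genes were called in either direction and 18.4% fell, and the median was -0.39; at E16.5, 3 fell and 6 rose (18.3% and 18.1% of all genes) and the median was 0.030. Tested against E11.5 in 1 fit over all 45 libraries, the 12 h change was more positive at E16.5 for 22 of 24 members, against 7.79% of all genes, and more positive at E14.5 for 4, against 4.84%. The first count was 17 without the pool block and 19 to 24 otherwise. The second rests on the settings: it was 0 without the block, 1, 2 and 6 without replicates A, B and C, 14 without a scaling factor and 20 with limma on unscaled log2(cpm + 1). The list's median difference from E11.5 was 0.113 at E14.5 and 0.565 at E16.5. Lss, whose fall at E11.5 was among the largest of the list, differed by more than this median at E16.5. Its 12 h change went from -1.22 in the youngest cells over -0.88 at E14.5 to -0.050 in the oldest. The E16.5 change of Lss exceeded that at E11.5 by 1.13 (adjusted p = 7.75e-15).

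Immediate early genes were not moved as 1 group. Of 23 tested, 9 fell and 2 rose (19.1% and 20% of all genes did), with a median log2 change of -0.15. Beside Egr1, Egr3 of the same family went from 4.7, 6.61 and 4.7 to 1.51, 3.15 and 1.14, 2.9-fold lower at 12 h (log2 -1.54 ± 0.20 SE, adjusted p = 1.32e-05), with no overlap. Fos changed by -0.45 (adjusted p = 0.00486), Myc by -0.42 (adjusted p = 3.08e-05) and Arc, a regulator of synaptic receptor traffic, by -0.43 (adjusted p = 0.000152). Jun was at 163, 156 and 131 and 177, 162 and 133, with a log2 change of 0.063 (adjusted p = 0.34). The 2 that rose were Dusp1, a MAP kinase phosphatase, by 0.29 (adjusted p = 0.00121) and Ier3 by 0.54 (adjusted p = 0.0116), and Ier3 lost its call without replicate A (log2 0.59) or B (0.31). Of 16 FGF receptors and feedback targets, 7 fell and 5 rose against the same shares of all genes, but without replicate A 2 rose and without replicate B 1 did. Fgfr3 (chr5:33721674-33737068) went from 313, 285 and 233 to 222, 180.1 and 155, 1.5-fold lower at 12 h (log2 -0.58 ± 0.079 SE, adjusted p = 2.08e-05). Spry1, an inhibitor of receptor tyrosine kinase signalling that shares 24.4% of its exonic bases with another gene, changed by -0.58 (adjusted p = 3.03e-06), with separate groups, and Il17rd, another feedback inhibitor, by 0.50 (adjusted p = 0.000152), with groups that overlapped.

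Of 12 Notch pathway genes tested, 7 fell and 2 rose (19.1% and 20% of all genes), and the median log2 change was -0.30. Among the targets that repress proneural genes, Hes1 (chr16:30064384-30067796) was at 33.3, 38.1 and 38.2 at 0 h and at 18.8, 18 and 17.8 at 12 h, 1.99-fold lower at 12 h (log2 -0.99 ± 0.069 SE, adjusted p = 1.33e-08). Hey1 went from 185, 178 and 173 to 117, 116 and 124, 1.52-fold lower at 12 h (log2 -0.61 ± 0.060 SE, adjusted p = 9.35e-07), and Hes5, with 31.8% of its exonic bases shared with another gene, changed by -0.48 (adjusted p = 0.000739). In all 3 the 12 h libraries lay below the 0 h libraries. Of the ligands, Dll1 changed by -0.43 (adjusted p = 4.56e-05) and Jag2 by 0.64 (adjusted p = 0.000889). Of the receptors, Notch1 changed by -0.31 (adjusted p = 0.00123) and Notch3 by 0.41 (adjusted p = 6.86e-05), and Notch2 had a log2 change of -0.052 (adjusted p = 0.576). Lfng, which modifies the receptors, and Nrarp, a feedback inhibitor, were the other 2 that fell. The 12 h change was more positive than at E11.5 for 6 of the 12 genes in E14.5 cells and for 7 in E16.5 cells (4.84% and 7.79% of all genes), and it was more negative for Jag1, Jag2 and Notch2 at both stages (11.3% and 16%). Hes1 changed by -0.43 and -0.45 there, each less than at E11.5 (adjusted p = 0.00298 and 0.00324). The 12 h change of Hes5 was 0.53 at E14.5 and 0.88 at E16.5, more positive than at E11.5 by 0.96 (adjusted p = 2.54e-06) and 1.31 (adjusted p = 7.66e-09).

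Markers of radial glia moved both ways, with 4 of 16 higher (20% of all genes), 6 lower (19.1%) and a median of -0.10. The largest fall was that of Hmga2 (chr10:120361275-120476469), a chromatin protein of young stem cells, from 178, 197 and 161 to 79.8, 74.1 and 68.8, 2.42-fold lower at 12 h (log2 -1.27 ± 0.058 SE, adjusted p = 1.41e-10). Slc1a3 (chr15:8634124-8710764), the glutamate transporter GLAST of radial glia and astrocytes, rose the most, from 102, 107 and 114 to 248, 266 and 256, 2.37-fold higher at 12 h (log2 1.25 ± 0.051 SE, adjusted p = 3.55e-11). Neither gene had overlapping groups. Sox21, with 18.8% of its exonic bases shared, changed by -0.68 (adjusted p = 3.9e-07) and Sox2 by -0.17 (adjusted p = 0.00908), while Pax6 changed by 0.19 (adjusted p = 0.0195) and Nes had a log2 change of -0.087 (adjusted p = 0.237). Without replicate A or without replicate B, 2 radial glia markers rose and 3 fell. In the gliogenic list 8 of 13 genes rose (20% of all genes did) and none fell, with a median of 0.49. Bcan (chr3:87987531-88000230), the matrix proteoglycan brevican, was at 37.3, 30.1 and 52.4 at 0 h and 115, 92.2 and 114 at 12 h, 2.73-fold higher at 12 h (log2 1.45 ± 0.087 SE, adjusted p = 2.9e-09). Pdgfra, the PDGF receptor of oligodendrocyte precursors, had a log2 change of 1.08 (adjusted p = 6.04e-05). The oligodendrocyte lineage factors Olig1 and Olig2 had log2 changes of 0.83 (adjusted p = 8.23e-07) and 0.71 (adjusted p = 2.05e-07). Ptn, a growth factor, changed by 0.77 (adjusted p = 4.88e-09). Aldh1l1, an astrocyte enzyme gene that shares 13.4% of its exonic bases, changed by 1.02 (adjusted p = 5.9e-08), and in each of these 6 genes the groups were separate. The factors that start gliogenesis did not pass the test: Nfia had a log2 change of 0.002 (adjusted p = 0.979) and Nfib one of -0.091 (adjusted p = 0.364). With limma on unscaled log2(cpm + 1), 7 of the 13 gliogenic genes rose and 3 fell.

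Of 11 proneural and intermediate progenitor genes, 5 fell and 1 rose where 19.1% and 20% of all genes did (3 fell and none rose without replicate A). Eomes (chr9:118478212-118486132), the T-box factor of intermediate progenitors, went from 56.4, 58 and 62.8 to 31.9, 29.2 and 27.8, 2.04-fold lower at 12 h (log2 -1.03 ± 0.068 SE, adjusted p = 8.7e-09), with no overlap, and its fall was smaller at E16.5 (-0.46, difference 0.53, adjusted p = 1.34e-05). Neurod1, which shares 13% of its exonic bases, changed by -0.41 (adjusted p = 0.000608), and Neurog2 had a log2 change of -0.055 (adjusted p = 0.611). Of the study's 57 neuron-enriched genes tested, a list the study drew from single-cell expression and not from the chase, 26 rose and 3 fell, with a median log2 change of 0.15; of its 56 progenitor-enriched genes, 9 rose (16.1%, against 20% of all genes) and 21 fell (37.5%, against 19.1%), with a median of -0.066. The neuron list's direction rests on the scaling, as limma on unscaled log2(cpm + 1) gave 12 rises, 10 falls and a median of -0.022. Without replicate A, 19 of the 57 rose, and of the progenitor genes 2 rose and 9 fell, and without replicate B 4 rose and 12 fell. Rab3a, a synaptic vesicle GTPase, was at 52.7, 56.8 and 60.3 and then 74.4, 83 and 96.7, 1.5-fold higher at 12 h (log2 0.58 ± 0.059 SE, adjusted p = 1.12e-06), and the adhesion molecule Chl1 changed by 0.65 (adjusted p = 0.000542). In bulk libraries, more cells of a type and more RNA per cell cannot be told apart.

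Genes of the interneuron lineage were low at 0 h and rose. Of 10 listed, 5 were tested, and 4 of these rose, where 20% of all genes did. Beside Dlx5, Dlx1 (chr2:71528113-71533981) went from 9.32, 7.71 and 8.85 to 19.4, 19.4 and 17.9, 2.06-fold higher at 12 h (log2 1.04 ± 0.089 SE, adjusted p = 1.82e-07), and Dlx2 changed by 0.49 (adjusted p = 0.000301), all 3 without overlap. Gad1, Gad2 and Lhx6 stayed under the limit for testing. Gad1, the GABA-synthesising enzyme, was at 0.551, 0.416 and 0.587 at 0 h and at 1.84, 1.49 and 2.19 at 12 h, Gad2 at 1.57, 0.989 and 1.34 and then 1.92, 1.92 and 2.88, and Lhx6, a marker of medial ganglionic eminence cells, was at or below 0.127 at both ends. For Dlx1 the 12 h change was 0.65 at E14.5 and -0.21 at E16.5, below that at E11.5 by a log2 difference of -0.44 (adjusted p = 0.0155) and -1.29 (adjusted p = 2.37e-09). For Dlx2 the change at E14.5, 1.00, lay above that at E11.5 by 0.47 (adjusted p = 0.0245), and that at E16.5, -0.22, lay below it (difference -0.75, adjusted p = 0.000208). Of the 5 tested genes, 3 had a lower change in E14.5 cells (11.3% of all genes) and Dlx2 a higher one, and all 5 had a lower change in E16.5 cells (16%).

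**Figure D3:**
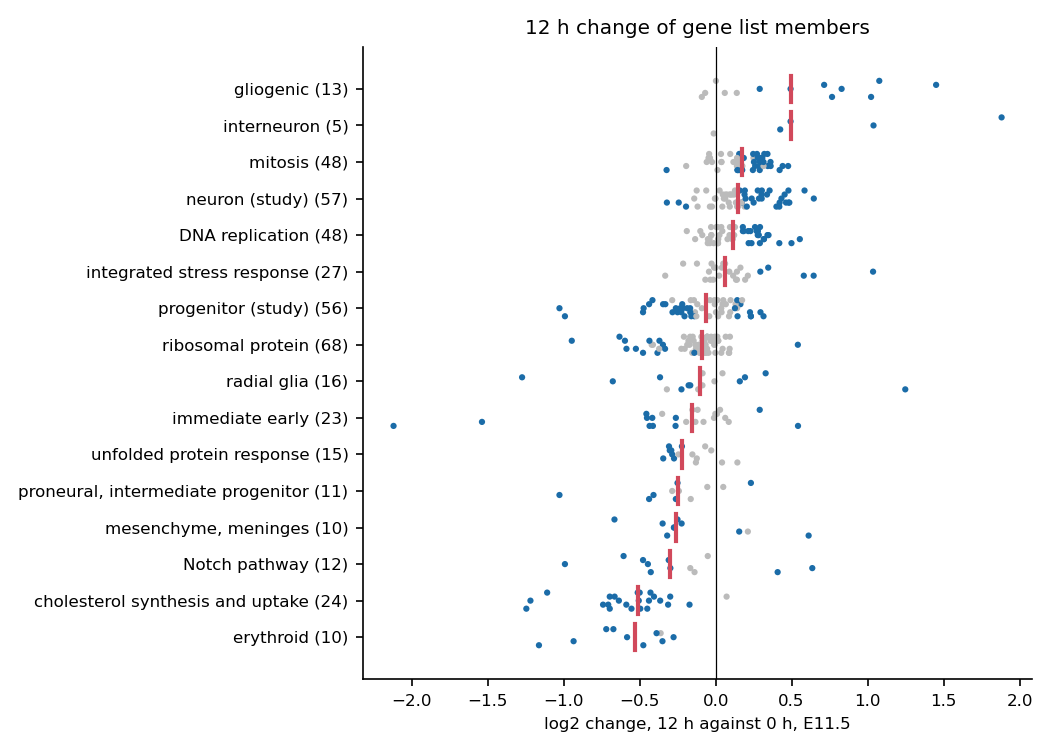
The log2 change from 0 h to 12 h at E11.5 (horizontal axis) of the tested members of 16 gene lists, with the number tested in parentheses, ordered by the median (red bar). Blue points passed an adjusted p of 0.05; the cholesterol genes lie left of 0 except Tm7sf2, and the gliogenic and mitosis medians lie at 0.49 and 0.17, the latter at 0.030 with limma on unscaled cpm.

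Mitosis genes fell in cells of both later stages but not at E11.5, where more rose than fell relative to the typical gene, with as many falls as rises under limma on unscaled cpm. Of 48 tested, 27 rose (20% of all genes) and 1, Cks2, fell (19.1%) at E11.5, with a median log2 change of 0.17. Cdc25b (chr2:131186949-131198497), the phosphatase that activates CDK1, was at 70.9, 63.8 and 70.7 and then 95, 93.8 and 98.4, 1.39-fold higher at 12 h (log2 0.48 ± 0.061 SE, adjusted p = 1.25e-05). Ttk, a kinase of the spindle checkpoint, went from 49.2, 41.5 and 45.2 to 61.2, 59.2 and 63.3, 1.36-fold higher at 12 h (log2 0.44 ± 0.074 SE, adjusted p = 0.00017), while Anln and Ect2, both needed for cytokinesis, changed by 0.42 (adjusted p = 1.49e-05) and 0.36 (adjusted p = 3.6e-05). These 4 genes had separate groups at the 2 ends. The count changed with scaling and replicates. Without a scaling factor 18 rose and 1 fell. Without replicate A or without replicate B 17 rose, but fewer of all genes rose there too (1479 and 1783 against 2599). With limma on unscaled log2(cpm + 1) 7 rose and 7 fell, where the list's median was 0.030 and that of all genes -0.16.

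The stage difference did not depend on these choices. At E14.5, 41 of the 48 fell over 12 h (18.4% of all genes) and none rose, with a median of -0.39, and at E16.5 42 fell (18.3%) and 1 rose, with a median of -0.34. In the fit over all stages 42 members had a lower 12 h change in E14.5 cells than in the youngest ones (11.3% of all genes did) and 44 in E16.5 cells (16%), and under the alternative settings these counts stayed between 38 and 43 and between 36 and 44. Cdc25b changed by -0.29 and -0.36 at the later stages and Ect2 by -0.38 and -0.29. Mitotic promoters are known to carry the CHR element, read by the DREAM and MuvB complexes, and its letters TTTGAA were searched on both strands of the 300 bases from 250 before to 50 after each RefSeq start (GRCm38.p6). They occurred in 30 of the 40 members with a promoter sequence (75.0%), in 13.9% of 9172 tested genes and in 17.9% of all 32851 windows. The 22 bases around it are shown for 2 of the named genes and for Plk1, the polo-like kinase of mitotic entry (log2 change 0.28), with the match in capitals, written 5′ to 3′ along the gene's strand, so that TTCAAA is the element on the other strand. A match is a description of the sequence and not evidence of binding.
Ect2, chr3:27153826-27153847, minus strand: tggattttTTTGAAtcggaggc
Ttk, chr9:83834688-83834709, plus strand: ggggaaatTTCAAAcgtgtttc
Plk1, chr7:122159457-122159478, plus strand: gcgccgcgTTTGAAttcgggga

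**Figure D4:**
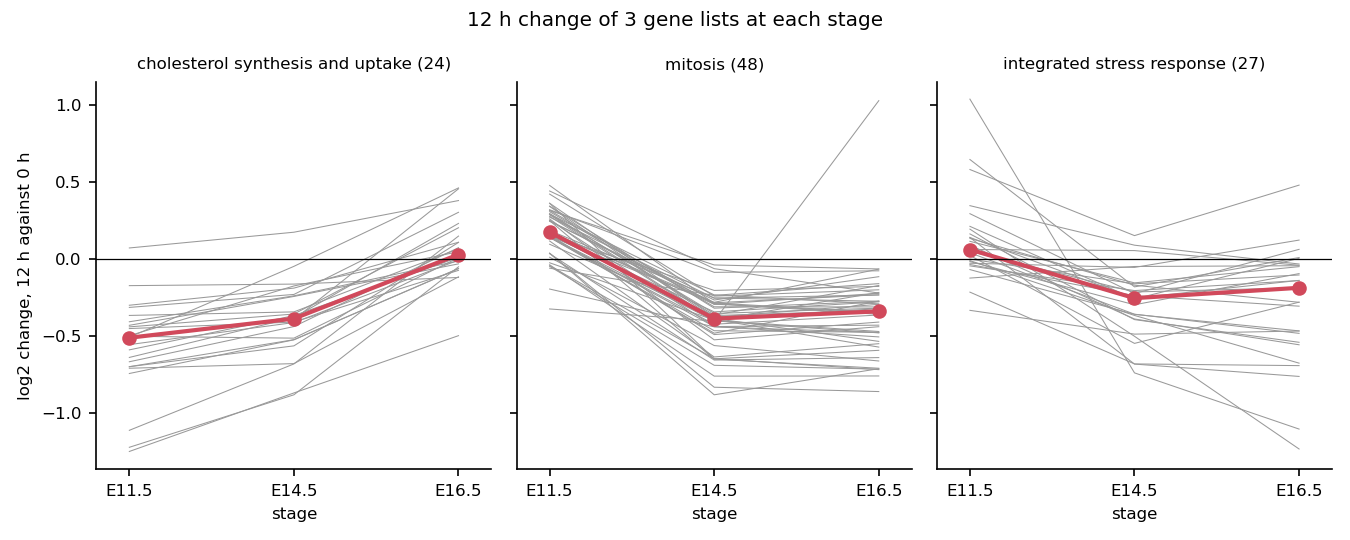
The log2 change from 0 h to 12 h (vertical axis) at the 3 stages for the tested cholesterol, mitosis and integrated stress response genes; grey lines are genes and the red line is the list's median. Cholesterol medians run from -0.51 to 0.030, mitosis medians lie at 0.17, -0.39 and -0.34 (0.030 at E11.5 with limma on unscaled cpm), and the mitosis gene that rises at E16.5 is Cks2.

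Targets of the integrated stress response, the ATF4 programme that answers amino acid shortage and other stress, also differed between stages. At 4 h in E11.5 cells, 13 of 27 were lower than at 0 h (10.9% of all genes) and 1 was higher, with a median log2 change of -0.207. At 8 h, 8 were higher (15.6% of all genes) and none lower, with a median of 0.047. At 12 h, 5 rose (18.5%, close to the 20% of all genes) and none fell. The 12 h median was 0.062, which turned to -0.013 without a scaling factor and to -0.11 with limma on unscaled log2(cpm + 1). Chac1 (chr2:119351229-119354381), a glutathione-degrading enzyme, was at 11.8, 17.6 and 12.9 at 0 h and 29.3, 39.1 and 16 at 12 h, 2.05-fold higher at 12 h (log2 1.04 ± 0.33 SE, adjusted p = 0.0187). Its groups overlapped, as replicate C was at 16 at 12 h after 42.6 at 4 h and 42.1 at 8 h, and the call was lost without replicate A (log2 0.88) or B (0.93) and without the replicate block (1.00). Without replicate A 3 members of the list rose, and without replicate C 9 did. Vldlr, a lipoprotein and reelin receptor, went from 69.7, 62.8 and 71.4 to 114, 116 and 90.8, 1.56-fold higher at 12 h (log2 0.65 ± 0.086 SE, adjusted p = 1.93e-05), with no overlap. Aldh1l2, a mitochondrial folate enzyme, changed by 0.58 (adjusted p = 0.00682), Pck2, mitochondrial PEPCK, by 0.35 (adjusted p = 0.0132) and Psph, an enzyme of serine synthesis, by 0.29 (adjusted p = 0.00447). Pck2 lost its call without replicate A (0.34). Atf4 itself was at 394, 365 and 379 and 468, 485 and 333, with a log2 change of 0.16 (adjusted p = 0.24) at 12 h, after 0.556 (adjusted p = 0.000897) at 8 h.

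Over the same 12 h, 20 of the 27 fell in E14.5 cells and 15 in E16.5 cells (18.4% and 18.3% of all genes), and the change was lower than at E11.5 for 17 and 16 members (11.3% and 16% of all genes), with none higher. Without replicate A these counts were 8 and 5, without replicate B 8 and 11, and without a scaling factor 7 and 11. Over all genes the lower changes numbered 1473 and 2076 in the main fit. They numbered 837 and 807 without replicate A, 705 and 1138 without replicate B and 860 and 1215 without a scaling factor. Atf4 changed by -0.39 and -0.54 at the later stages, and Trib3, an inhibitor of the response, by -0.50 and -1.23. The amino acid response element, a composite site bound by ATF4 with a C/EBP partner, was searched as TGATGNAA on both strands of the same windows. It occurred in 8 of the 22 members with a promoter sequence (36.4%), in 2.52% of tested genes and in 3.97% of all windows. The 3 matches in genes that rose are shown as above, each on the opposite strand to the spelling searched.
Chac1, chr2:119351041-119351064, plus strand: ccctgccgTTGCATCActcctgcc
Vldlr, chr19:27216812-27216835, plus strand: agcaatagTTGCATCAgcgctcct
Pck2, chr14:55540155-55540178, plus strand: cttcaaagTTACATCAgtatctta

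Of 48 DNA replication genes, 21 rose (20% of all genes) and none fell at E11.5 (median 0.11), a direction that turned with limma on unscaled log2(cpm + 1), where 5 rose and 12 fell; 26 rose and 3 fell at E14.5 and 31 rose and 4 fell at E16.5, where 20.7% and 18.1% of all genes rose. Ccne2, cyclin E2, which shares 17.4% of its exonic bases, changed by 0.55 (adjusted p = 2.02e-05), Pola2, a primase-associated polymerase subunit, by 0.50 (adjusted p = 4.45e-06) and Tk1, thymidine kinase, by 0.42 (adjusted p = 7.53e-06). Of 12 G1 cyclins and CDK inhibitors, a list that does not hold Cdkn2b, 5 rose and 1 fell (20% and 19.1% of all genes). Cdkn1c, with 30.7% of its exonic bases shared, changed by -1.05 (adjusted p = 2.31e-07), while Cdkn2c and Cdkn2d, inhibitors of the same family as Cdkn2b, changed by 0.81 (adjusted p = 6.2e-07) and 0.65 (adjusted p = 5.67e-07).

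The counts of the further lists are read against the 20% of all genes that rose and the 19.1% that fell, and a share near these, such as the 17.6% of ribosomal protein genes that fell, is no result about the list. Of 15 genes of the unfolded protein response, 7 fell and none rose (median -0.22), among them the chaperone Hyou1, by -0.30 (adjusted p = 0.000103); 3 fell without replicate A, 4 without replicate B and 11 without a scaling factor. Among 9 NRF2 targets 5 fell and 1 rose, and Gclm, a subunit of the glutathione-synthesising ligase, changed by -0.34 (adjusted p = 0.00078). Of 23 p53 targets 6 fell and 1 rose, with log2 changes of -0.62 (adjusted p = 1.48e-06) for Plk2 and -0.27 (adjusted p = 0.000562) for Mdm2, and 3 fell without replicate A or C. Heat shock genes gave 2 falls of 9, hypoxia and glycolysis genes 5 rises and 1 fall of 17, FOXO targets 4 rises and 2 falls of 12, circadian genes 5 rises and 3 falls of 15, and pyrimidine metabolism genes 4 of each among 15. Of the nuclear respiratory chain genes 4 of 73 rose and 1 fell. Of 68 ribosomal protein genes 12 fell and 1 rose, but many have near-identical processed copies, so their reads are uncertain, and 5 fell without replicate A and 45 with limma on unscaled log2(cpm + 1). BMP and Id genes gave 1 rise and 3 falls of 11, WNT targets 3 of each among 10, Cajal-Retzius genes 2 rises and 4 falls of 8, deep-layer neuron genes 3 falls of 9, interferon-stimulated genes 2 falls of 7 and snoRNA host genes 2 falls of 4. Of 4 mRNAs of the mitochondrial genome, mt-Co2 alone passed. These small counts were lower with a replicate left out. Without replicate A, 1 circadian gene rose, 1 pyrimidine gene rose and 2 fell, 3 NRF2 targets fell and 1 respiratory chain gene rose. Without replicate B no heat shock gene and 1 pyrimidine gene fell, and without replicate A or B 1 WNT target rose and 1 BMP or Id gene fell. Calls over all genes dropped as well, to 1479 rises and 1178 falls without A and 1783 and 1587 without B. The lower counts therefore do not by themselves show that a list rests on 1 replicate.

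RNA of non-neural cells was present and mostly declined. Of 10 erythroid genes tested, 9 fell where 19.1% of all genes did (median -0.53); the embryonic globin gene Hbb-bh1 went from 32.9, 55.9 and 107 to 14.2, 26 and 47.2, and its groups overlapped although it fell in each pair (log2 -1.16, adjusted p = 1.19e-06). The pools differed in their erythroid RNA, with replicate C highest at 0 h for Hbb-bh1, and without the replicate block 2 of the 10 passed. Among 10 mesenchymal and meningeal genes 7 fell and 2 rose, but 3 fell without replicate A and none without the block. Col1a1 was at 94.5, 169 and 103 and then 76.9, 133 and 80.8, a change of -0.32 (adjusted p = 0.00073), while Dcn changed by 0.61 (adjusted p = 0.00469). No endothelial or microglial gene reached the limit for testing. At 0 h the means of the 5 endothelial markers lay between 0.252 and 2.15 and those of the 6 microglial markers between 0.374 and 3.88, and at 12 h they lay between 0.296 and 2.64 and between 0.203 and 1.57. The part of these cells in the changes above was not tested.

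Most RNAs set apart for lacking a poly(A) tail were higher at 12 h. Of the 14 tested, 9 rose and 1 fell at 12 h, where 20% and 19.1% of all polyadenylated genes did. The 14 are not independent, as some of the gene models overlap. Gm42418, a gene model inside the 45S rRNA repeat (chr17:39846958-39848788), was at 4963, 4181 and 10340 at 0 h and 34500, 42270 and 88590 at 12 h, 8.55-fold higher at 12 h (log2 3.10 ± 0.20 SE, adjusted p = 5.82e-09); DESeq2 gave an adjusted p of 0.188 for it. Its log2 values at 2, 4 and 8 h were -0.70, -0.81 and -0.43. AY036118, which overlaps it on the other strand over its whole length, changed by 3.08 and Gm26917 by 1.24. Of the 7 small RNAs, 4 rose: Rmrp, the RNA of RNase MRP, went from 3.64, 3.23 and 13.2 to 48.4, 54.5 and 102, Rn7sk, the inhibitor of P-TEFb, from 6.78, 6.56 and 21 to 52.3, 72.6 and 184, and the models Mir6236 and Gm23935 changed by 2.85 and 2.77. All 7 had separate groups at the ends. Histone genes were mixed, with log2 changes of 0.83 (adjusted p = 1.41e-05) for H1f2, 1.17 (adjusted p = 4.12e-05) for H2bc4, -0.70 (adjusted p = 0.00033) for H2bc21 and -0.18 (adjusted p = 0.112) for H4c9. The snoRNA model Gm25432, Mir703 and the mitochondrial tRNA mt-Tl1 had log2 changes between -0.12 and -0.044, with adjusted p from 0.354 to 0.872.

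A few genes counted as polyadenylated followed the rRNA course. Lars2 (chr9:123366927-123462666), mitochondrial leucyl-tRNA synthetase, was at 274, 247 and 526 at 0 h and 1614, 1826 and 3407 at 12 h, 6.66-fold higher at 12 h (log2 2.74 ± 0.16 SE, adjusted p = 2.84e-09), with -0.41, -0.54 and -0.17 in between. Gm15564 and Gm37194, 2 gene models chosen for the difference between stages, changed by 2.76 and 2.96, and replicate C was the highest at 12 h for all 3. Gm14236, an antisense model chosen after its values were seen, changed by 2.62. Reads in rRNA sequence made up 0.531, 0.453 and 1.09% of the reads at 0 h, 0.291 to 0.60% at 2 to 8 h and 3.45, 4.12 and 8.28% at 12 h in replicates A, B and C. All 3 E11.5 libraries of 12 h stood apart in this way, while the 12 h libraries of E14.5 and E16.5 held 0.200 to 0.362%. Elsewhere single libraries were high: 1.69 and 2.34% at 2 h in replicates A and B and 2.06% at 8 h in replicate C of E14.5. The share moves with the 12 h group, and its part in the changes of other genes was not tested beyond the library totals. With rRNA sequence taken out of these totals, 2699 polyadenylated genes rose and 2326 fell, and 4925 of the 5080 calls were kept in the same direction.

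**Figure D5:**
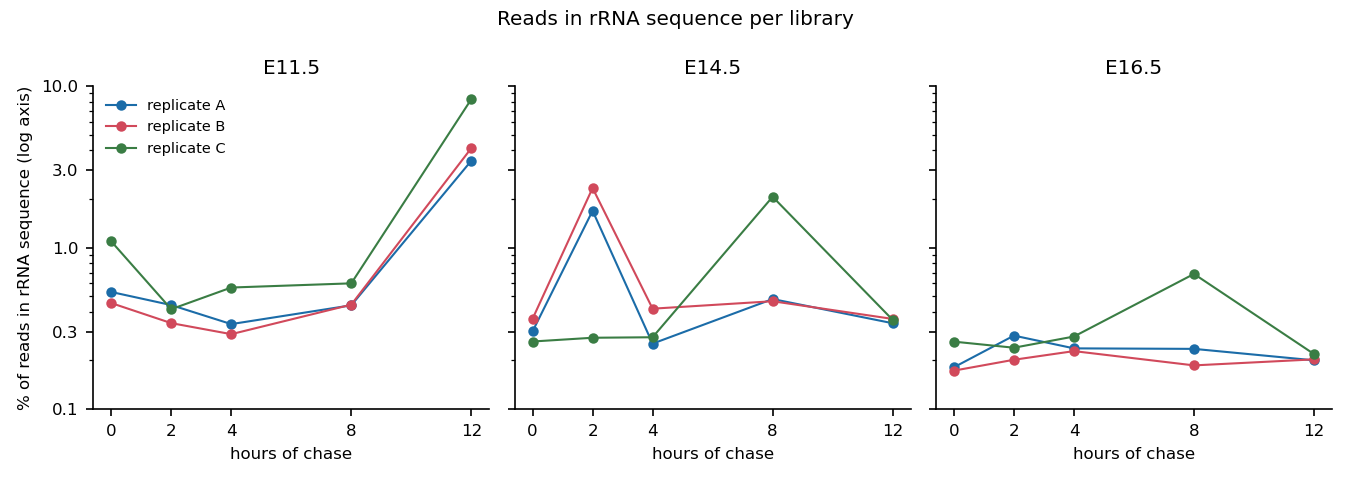
Percent of reads in rRNA sequence (vertical log axis) in each of the 45 libraries against hours of chase, by stage, 1 line per replicate. The 3 E11.5 libraries of 12 h, at 3.45 to 8.28%, are the highest of all libraries; 2 libraries of E14.5 at 2 h and 1 at 8 h are also raised.

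The label itself falls over the chase, so the 12 h change was set beside the label of each gene. Over 4 equal groups of genes from the lowest to the highest conversion rate at 0 h, the median log2 change was 0.032, -0.011, -0.011 and -0.025, and the share that rose was 26.0% in the lowest group, 18.6 and 18.8% in the middle ones and lower in the highest. Over 4 groups of the half-life, which was fitted here to the conversion rates and obtained for 10858 of all genes, the medians were 0.001, 0.005, 0.006 and -0.011. Rate and coverage come from the same libraries, so these values are a description.

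Across all genes, the 12 h change at E14.5 differed from that at E11.5 for 2103 polyadenylated genes (16.2%), and that at E16.5 for 3089 (23.8%). At E14.5, 630 were more positive and 1473 more negative than at E11.5; at E16.5, 1013 and 2076. This split turned with the scaling: without a scaling factor it was 1733 against 860 and 1877 against 1215, with limma on unscaled log2(cpm + 1) 4261 against 621 and 3957 against 746, and with rRNA sequence out of the library totals 956 against 1159 and 1545 against 1454. A clear case was Pla2g7, a lipoprotein-associated phospholipase, which fell from 15, 12.2 and 15.3 to 4.29, 4.03 and 6.07 at E11.5, 2.93-fold lower at 12 h (log2 -1.55 ± 0.10 SE, adjusted p = 8.7e-09), and changed by -0.56 at E14.5 and 0.75 at E16.5.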

How the data were processed

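Gene tables of 45 SLAM-seq libraries (3 stages, 5 chase times, 3 replicates) were used; the 15 of E11.5 carry the results. Per the study's methods, the authors ran SlamDunk on mm10 and added up the exons (GENCODE vM24) of each gene; how reads matching several places and strand were treated is not given in the sources used here. The deposited covered-T counts are raw numbers of T positions covered by reads, so 1 read adds several counts. The deposited cpm values are reads scaled by library size, of which 100% came out as whole reads (within 0.01 of a read), and the deposited conversion rate is a fraction, converted over covered Ts. The authors' half-life columns were not used.

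Covered-T counts were tested with edgeR 4.0.16 (TMM, quasi-likelihood F-test, chase time plus replicate as a block) in R 4.3.3, with SEs derived from the F statistic, and stages were compared over all 45 libraries with the pool as a block. The pairing comes from the described protocol, since 1 pool was divided over 5 wells; same-letter libraries correlated in their deviations from the time means at 0.038 to 0.62 (30 pairs), different letters at -0.55 to 0.29 (60 pairs). On simulated data of 13018 genes for the 12 h comparison, 91% of 1.5-fold and 100% of 2-fold changes were recovered, and 12 calls (5.91%) were false. In it 100 genes changed by each fold, up and down alike, with no difference between pools and no shift in rRNA sequence. Most calls in the real data were under 1.5-fold, a size that was not simulated. The simulated rates therefore do not carry over to those calls. Alternatives used DESeq2 1.42.0 and limma 3.58.1, other filters, scalings and designs, and each replicate left out. Exon overlaps, positions and gene types came from GENCODE M21, another release than the authors', and promoters from RefSeq GRCm38.p6.

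Genes named are the 10 largest rises and falls among called protein-coding genes that moved the same way in all 3 pairs, with at least 5 cpm at the higher end, up to 4 called members per list, up to 5 called genes without a tail per direction, and the 5 largest stage differences per direction; other list members were added to show a pathway, after their values were seen. Some members of the lists are not reported here by name. Members and lists were chosen with earlier results of these data known.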

Additional observations from a re-analysis of the deposited data

Results flagged for a closer look

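The 12 h change at E14.5 differed from that at E11.5, by the interaction term of the edgeR fit, for 2103 polyadenylated genes, and that at E16.5 for 3089. The 5 largest differences in each direction were as follows, each a log2 difference of the later stage minus E11.5.

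At E14.5 the more positive ones were Plpp4 (3.91), Pde7b (3.08), Aldh1a2 (3.06), Pdgfra (2.14) and Ptprv (2.06), and the more negative ones Dlx6os1 (-2.5), Gm37194 (-2.49), Lars2 (-2.46), Gm15564 (-2.43) and Cbln4 (-2.23). Pdgfra had 55, 51 and 53 reads at 0 h and 281, 486 and 395 at 12 h at E14.5, and Dlx6os1 had 480, 272 and 418 and then 122, 184 and 221. Aldh1a2 had at most 4 reads in any E14.5 end library, Ptprv at most 13, Cbln4 at most 19, Pde7b at most 31 and Plpp4 at most 44, so their sizes depend on the prior count of the fit.

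At E16.5 the more positive ones were Agtr2 (6.46), Gm12918 (3.2), Gm5453 (2.3), Pla2g7 (2.26) and Lrrc23 (2.25), and the more negative ones Sall4 (-7.63), Neurog1 (-3.91), Gm15564 (-2.71), Lars2 (-2.61) and Gm37194 (-2.6). Agtr2 had 0 reads in each E16.5 library of 0 h and 1 in each of 12 h, and Neurog1 had 2, 11 and 3 reads and then 0, 0 and 1, while Sall4 had at most 4 reads and Lrrc23 at most 10 in any, so none of these values is a bound on a fold change. Gm12918 had 104, 125 and 67 reads at 0 h and 750, 620 and 509 at 12 h. For Lars2, Gm15564 and Gm37194 the difference follows the E11.5 libraries of 12 h, in which rRNA sequence was also high; its part in them was not tested.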

How the results depend on the processing

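Of 161 values for named genes, 105 kept their call and sign under every alternative and 56 did not in at least 1; over all pairs of value and alternative, 2041 were kept, 136 lost the call and 3 changed sign. The sign changed for Agtr2 at E16.5 with limma on log2(cpm + 1) (-0.68) and log2(cpm + 0.1) (-0.43), and for Neurog1 at E16.5 with limma on log2(cpm + 1) (0.11); the cause was not tested.

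With limma on log2(cpm + 1) and log2(cpm + 0.1), which do not rescale the libraries, 1050 and 1053 genes rose and 5455 and 5457 fell at 12 h, 24 and 42 rose over 2-fold, 554 and 550 changed at 2 h, and 4882 and 4754 differed at E14.5, while 4703 differed at E16.5 with the first. With over 2000 covered Ts, 27 genes rose and 35 fell over 2-fold and 6 RNAs without a tail changed; with at least 1 covered T these were 236, 504 and 62, since other genes were tested. Testing against 2-fold itself (glmTreat) left 18 rises and 25 falls. DESeq2 gave 1367 changes at 2 h. Of the 5080 calls at 12 h, 4238 were kept in the same direction without a scaling factor. With limma on log2(cpm + 1) 3531 were kept and 122 changed sign. Without the replicate block, the paired structure being ignored, 285, 1224 and 2349 genes changed at 2, 4 and 8 h, 887 and 1424 differed at E14.5 and E16.5, and 3529 of the 5080 calls at 12 h and 171 of the 175 over 2-fold were kept. The value with rRNA sequence out of the library totals was added after seeing the data.

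Leaving out each replicate in turn gave 1479 to 2523 rises and 1178 to 2324 falls at 12 h, 71 to 98 and 85 to 100 over 2-fold, 80 to 988, 841 to 2765 and 1479 to 4124 changes at 2, 4 and 8 h, 1011 to 1712 and 1346 to 2742 differences at E14.5 and E16.5, and 10 to 11 RNAs without a tail. The lowest counts came without replicate A except for rises and falls over 2-fold and the E14.5 differences, where it was replicate B; the 5080 calls kept without A, B and C were 2632, 3262 and 4352, and of the 175 over 2-fold 174, 174 and 175 were kept.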
